A study of Saccharomyces cerevisiae with 5 samples.

Results

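Saccharomyces cerevisiae meets superoxide and peroxides with a small set of enzymes, and this account follows 10 of their genes: the catalases CTT1 and CTA1, the superoxide dismutases SOD1 and SOD2, the peroxiredoxins TSA1, TSA2 and AHP1, the glutathione peroxidase family members GPX2 and HYR1, and the cytochrome c peroxidase CCP1. They were chosen by gene symbol, with earlier results of these data known, and all 10 were found among the 5886 genes listed. A SUL1 knockout of BY4741, with 3 libraries, was set against wild-type BY4741, with 2. SUL1 encodes a permease that brings sulfate into the cell with high affinity. BY4741 is a haploid laboratory strain derived from S288C, with deletions of LEU2, MET17 and URA3 and a partial deletion of HIS3. Whether the knockout still carries each of them is not stated in the labels. All cultures grew at 30 °C in YPD, which holds 2% glucose, 2% peptone and 1% yeast extract. Cells of both strains were taken in exponential phase, and an optical density of 0.6 is given for the knockout only. The study asks how loss of SUL1 lengthens replicative lifespan and whether lower protein kinase A (PKA) activity takes part. How the knockout was made, how many clones it stands for and whether the libraries came from separate cultures is stated nowhere in the labels, beyond titles that number biological replicates, so the p-values measure the spread between these libraries.

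Superoxide dismutases turn superoxide into hydrogen peroxide and oxygen. Catalases and peroxidases then remove hydrogen peroxide, catalases without a reductant and peroxiredoxins and glutathione peroxidases at the cost of thioredoxin or glutathione. In yeast the transcription factor Yap1 switches on many of these genes when peroxide rises. Msn2 and Msn4, which PKA keeps out of the nucleus, act through the stress response element AGGGG, and CTT1 is among their best known targets.

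SUL1 was listed at 0 FPKM (fragments per kilobase of transcript and library size) in knockout replicates 1, 2 and 3, against 8.28 and 9.78 FPKM in wild-type replicates 1 and 2. A gene of its 2580 coding bp with 0 fragments could have had up to 0.0492 to 0.05 FPKM in the knockout libraries, the worth of 3 fragments, for counting error only. The depth estimated from the values lay between 24625000 and 24925000 fragments for the knockout libraries and between 22575000 and 25025000 for those of the wild type. MET17 was listed at 0 in all 5 libraries, whereas HIS3, of which the strain keeps a part, had 130 to 141 FPKM in knockout libraries and 138 to 146 FPKM in wild-type libraries. LEU2 and URA3 were not among the genes listed. STE2, a receptor made by cells of mating type a, had 115 to 143 FPKM in knockout libraries and 131 to 145 FPKM in wild-type libraries. BAR1, another marker of type a, had 8.6 to 14.03 FPKM in knockout and 11.01 to 16.95 FPKM in wild-type libraries. Of the markers of type alpha, STE3 had 9.74 to 11.76 and 8.38 to 11.58 FPKM, in the same order. MF(ALPHA)2 had 6.12 to 8.44 and 4.97 to 7.6 FPKM, and MF(ALPHA)1 at most 0.23 and 0.8 FPKM. Of the 5 libraries, knockout replicate 2 had the largest effect on the number of calls when left out. With all 5 libraries 11 genes were called higher and 4 lower at an adjusted p under 0.05 (limma on log2(FPKM + 1), Benjamini-Hochberg over 5712 genes), against 298 and 598 without it. With every library scaled to the same sum of FPKM, 4 were called higher and 4 lower. Values for the enzyme genes are therefore given with and without knockout replicate 2.

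None of the 10 genes was called, with 0 higher and 0 lower, where 0.193% of all genes tested were called higher and 0.07% lower, 0.263% together (limma). All 10 had passed the filter on low values, a mean of at least 1 FPKM. Adjusted p-values ran between 0.182 and 0.890. At an unadjusted p under 0.05 there were 3 of the 10, CTT1, AHP1 and TSA2, all with higher values in the knockout. Of all genes tested 18.6% had such a p, 6.92% with higher and 11.6% with lower values. Knockout and wild-type libraries did not overlap for 6 of the 10, with 4 above and 2 below, against 41.1% of all genes tested, with 13.1% above and 28.0% below. The median log2 fold change of the 10 was 0.12, with 6 positive and 4 negative, and the median over all genes tested was -0.07.

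**Figure D1:**
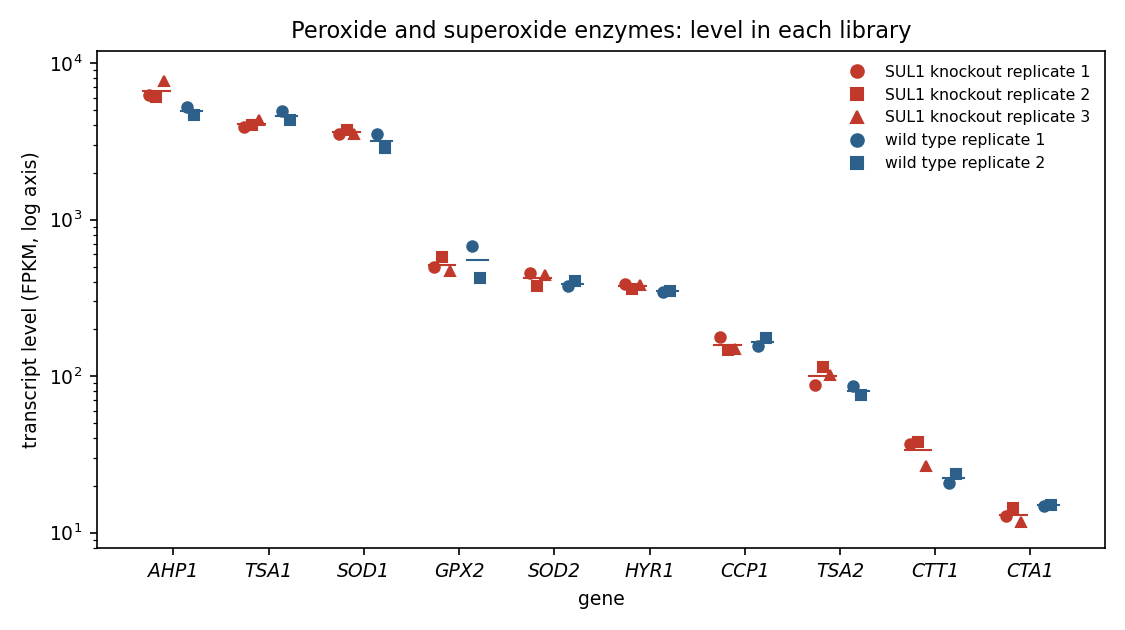
Transcript level of the 10 enzyme genes in each library, in FPKM on a log axis, with knockout libraries left of wild-type libraries and short lines at the group means (n = 3 and n = 2). Genes run from AHP1, at 4677 to 7713 FPKM, down to CTA1, at 11.7 to 15.1 FPKM, in the same order in every library.

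The levels spread widely, and their order was the same in all 5 libraries. From high to low it ran AHP1, TSA1, SOD1, GPX2, SOD2, HYR1, CCP1, TSA2, CTT1 and CTA1, on FPKM, which is per length. The highest gene exceeded the lowest between 417-fold and 659-fold in knockout libraries and between 310-fold and 354-fold in wild-type libraries. AHP1, TSA1 and SOD1 together made up between 89.2% and 90.8% of the summed FPKM of the 10 genes in knockout libraries and between 89.0% and 89.1% in wild-type libraries. The catalases together made up between 0.224% and 0.340% in knockout libraries and between 0.231% and 0.292% in wild-type libraries. Ranges over the libraries overlapped for 3 pairs of neighbours in this order, AHP1 with TSA1, GPX2 with SOD2, and SOD2 with HYR1. The closest of all was SOD2 over HYR1, with ratios between 1.05 and 1.18. The whole set took between 0.793% and 0.933% of all FPKM in knockout libraries and between 0.771% and 0.849% in wild-type libraries.

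CTT1, the cytosolic catalase T, had the largest difference of the set. The gene (YGR088W) spans chromosome VII, bases 654634 to 656322 (R64, forward strand), as a single coding exon. It had 36.9, 38.1 and 26.7 FPKM in knockout replicates 1, 2 and 3, against 20.7 and 23.9 FPKM in wild-type replicates 1 and 2. Each knockout library stood above both wild-type libraries, and knockout replicate 3 came close to wild-type replicate 2. The means were 33.9 ± 6.23 FPKM in the knockout (SD, n = 3) and 22.3 ± 2.26 FPKM in the wild type (SD, n = 2), a ratio of 1.52. The log2 fold change of 0.57 ± 0.17 (SE) had a 95% interval of 0.18 to 0.96 and did not pass the test (limma, adjusted p = 0.182). Without knockout replicate 2 it was 0.48 (limma, adjusted p = 0.0833). Leaving out any library kept it between 0.47 and 0.73, never with a call.

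The stress response element was looked for in the 500 bases before the start codon, as AGGGG or its complement CCCCT, and CTT1 held 3 copies. Of 6000 promoters of that length in R64, 34.1% held at least 1 copy, 8.13% at least 2 and 1.83% at least 3. AHP1 also held 3 and TSA2 2, whereas TSA1, with lower values in the knockout, held 2, of which the farther lies inside the neighbouring gene YML029W. SOD1, SOD2, GPX2 and CCP1 held 1 each, and CTA1 and HYR1 none. For the 3 genes with the largest differences, the stretch with the closest pair of matches is shown from the RefSeq genome R64 on the strand of the gene, with the element and, in AHP1, the Yap1 site TTAGTAA in capitals.
CTT1, chrVII:654241-654290, forward strand, 393 to 344 bases before the start codon: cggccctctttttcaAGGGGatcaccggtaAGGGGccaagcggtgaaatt
AHP1, chrXII:368281-368342, forward strand, 500 to 439 bases before the start codon: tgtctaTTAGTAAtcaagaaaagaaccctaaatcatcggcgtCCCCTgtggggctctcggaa
TSA2, chrIV:1365911-1365994, reverse strand, 332 to 249 bases before the start codon: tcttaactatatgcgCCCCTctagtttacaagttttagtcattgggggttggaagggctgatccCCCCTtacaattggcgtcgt
The CTT1 elements shown start 15 bases apart, and the remaining copy lies 133 to 129 bases before the start codon. The Yap1 site, as TTAGTAA or TTACTAA, was found in 11.8% of the promoters, and there was 1 in AHP1, TSA2, CTA1, SOD1 and SOD2, 2 in GPX2 and none in CTT1, CCP1, HYR1 or TSA1. These matches describe the letters of the window and do not show binding.

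CTA1, catalase A of peroxisomes and mitochondria, was the least abundant gene of the set. It lies on chromosome IV at 968133 to 969680, on the reverse strand. It had 12.9, 14.5 and 11.7 FPKM in the knockout replicates, against 14.8 and 15.1 FPKM in the wild-type replicates. All knockout values lay below the wild-type values, the nearest pair being 14.48 FPKM in knockout replicate 2 and 14.76 FPKM in wild-type replicate 1. CTA1 differed by -0.19 ± 0.13 in log2 (SE; limma, adjusted p = 0.446), with a 95% interval of -0.49 to 0.12, and -0.26 without knockout replicate 2 (adjusted p = 0.142). Without knockout replicate 3 it was -0.12. The ratio of CTT1 to CTA1 within a library does not depend on how libraries are scaled. It was 2.87, 2.63 and 2.28 in the knockout and 1.4 and 1.58 in the wild type, so the groups did not overlap. The difference of the log2 ratios was 0.80, with p = 0.2 in a two-sided exact permutation test and adjusted p = 0.3 over the 3 ratios compared. With 3 against 2 libraries, 0.2 is the smallest p that this test can give. These ratios were chosen after the values were seen.

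Among the peroxiredoxins, AHP1 and TSA2 had higher values in the knockout and TSA1 lower ones, none of them called. AHP1 (YLR109W, chromosome XII at 368781 to 369311, forward strand) encodes a thioredoxin-dependent peroxidase that prefers organic hydroperoxides. It had 6265, 6042 and 7713 FPKM in the knockout, against 5227 and 4677 FPKM in the wild type. The groups did not overlap, and knockout replicate 3 was the highest library. The means were 6673 ± 907 FPKM in the knockout (SD, n = 3) and 4952 ± 389 FPKM in the wild type (SD, n = 2). The log2 fold change was 0.42 ± 0.13 (SE), with a 95% interval of 0.13 to 0.72 (limma, adjusted p = 0.189).

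AHP1 was the only gene of the 10 to gain a call when a library was left out. Without knockout replicate 2 its log2 fold change was 0.49 ± 0.12 (SE, limma, adjusted p = 0.0311), and in that fit 5.22% of all genes were called higher and 10.5% lower. Over the 5 fits that leave out a library its value lay between 0.32 and 0.50, with adjusted p = 0.362 without wild-type replicate 1 and adjusted p = 0.737 without wild-type replicate 2.

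TSA1 (YML028W, chromosome XIII at 220138 to 220728, forward strand) encodes the main cytosolic peroxiredoxin, which also works as a chaperone. It had 3918, 4002 and 4309 FPKM in the knockout, against 4923 and 4332 FPKM in the wild type. The knockout libraries lay below both wild-type libraries, knockout replicate 3 only just. TSA1 differed by -0.18 ± 0.10 in log2 (SE; limma, adjusted p = 0.340), with a 95% interval of -0.41 to 0.05. It was -0.09 without wild-type replicate 1 and -0.27 without wild-type replicate 2. TSA2 (YDR453C, chromosome IV at 1365072 to 1365662, reverse strand), its much less abundant paralog, had 87.3, 114 and 101 FPKM in the knockout, against 86.3 and 75.6 FPKM in the wild type. Knockout replicate 1 and wild-type replicate 1 all but met, at 87.26 and 86.28 FPKM. TSA2 differed by 0.31 ± 0.13 in log2 (SE; limma, adjusted p = 0.263) with a 95% interval of 0.004 to 0.61, and 0.21 without knockout replicate 2 (adjusted p = 0.198). TSA2 stood at 2.23%, 2.84% and 2.34% of the TSA1 level in the knockout and at 1.75% in both wild-type libraries. The difference of the log2 ratios was 0.49, with p = 0.2 in the two-sided exact permutation test, adjusted p = 0.3.

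Reads of close paralogs can be assigned to the wrong copy, so the coding sequences were compared. TSA1 and TSA2 shared 464 of 591 bases, or 78.5%, and the longest run of identical bases was 14. The 90 coding bases in which they are most alike are shown 5′ to 3′ in the coding direction, with bases that differ in capitals, 13 in number.
TSA1, chrXIII:220462-220551, forward strand: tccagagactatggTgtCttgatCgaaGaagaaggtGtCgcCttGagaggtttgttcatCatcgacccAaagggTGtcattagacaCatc
TSA2, chrIV:1365249-1365338, reverse strand: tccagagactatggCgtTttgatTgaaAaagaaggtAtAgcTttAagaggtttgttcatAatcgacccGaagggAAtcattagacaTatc
HYR1 and GPX2 shared 71.2% of aligned bases with a longest identical run of 23, and CTT1 and CTA1 63.4% with a longest run of 10. The read length and the handling of reads with several matches are not given here by any source used, and how far reads passed between copies was not tested. No other annotated gene overlaps any of the 10.

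**Figure D2:**
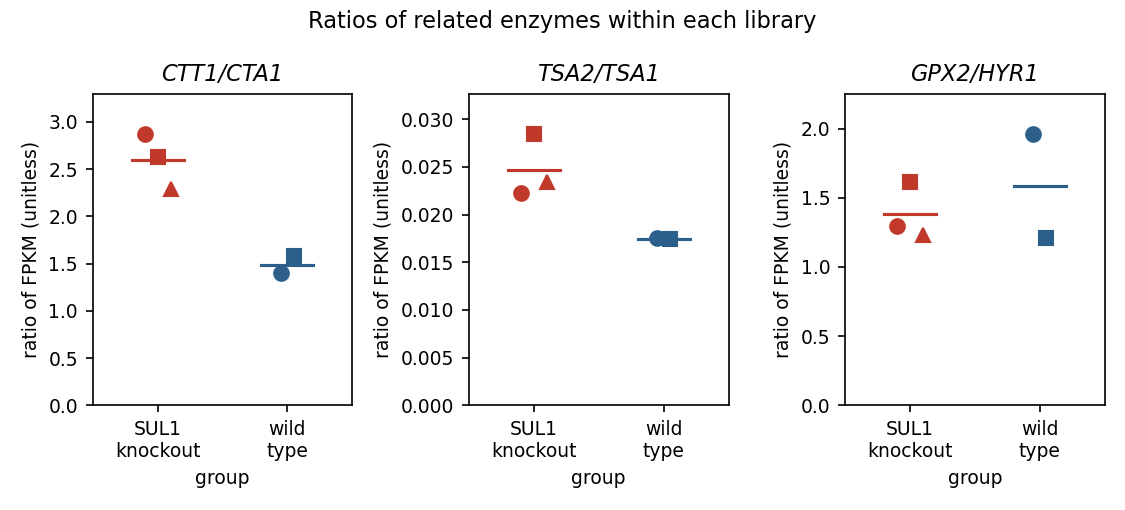
Ratio of FPKM between related enzymes within each library, knockout left and wild type right, with lines at the group means (circle, square and triangle for replicates 1, 2 and 3). The knockout libraries lay above the wild-type libraries for CTT1/CTA1 (2.28 to 2.87 against 1.4 to 1.58) and TSA2/TSA1, and overlapped with them for GPX2/HYR1.

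Neither gene of the glutathione peroxidase family was called. HYR1 (YIR037W, chromosome IX at 423128 to 423619, forward strand), also called GPX3, senses peroxide and passes the signal to Yap1. It had 386, 360 and 381 FPKM in the knockout, against 345 and 352 FPKM in the wild type, without overlap between the groups. Its interval was the narrowest of the 10, -0.08 to 0.30 around a log2 fold change of 0.11 (limma, adjusted p = 0.478). GPX2 (YBR244W, chromosome II at 707528 to 708016, forward strand), which reduces phospholipid hydroperoxides, had 501, 581 and 468 FPKM in the knockout, against 676 and 425 FPKM in the wild type. The wild-type libraries enclosed all knockout values. They differed from each other 1.59-fold, where the median gene tested differed 1.09-fold between them and 2.98% of genes at least as much as GPX2. The GPX2 log2 fold change was -0.06 with a 95% interval of -0.54 to 0.42 (limma, adjusted p = 0.890). It was 0.28 without wild-type replicate 1 and -0.39 without wild-type replicate 2. GPX2 stood at 1.3, 1.61 and 1.23 times the HYR1 level in the knockout and at 1.96 and 1.21 times in the wild type (two-sided exact permutation test, p = 0.8).

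Neither superoxide dismutase was called. SOD1 (YJR104C, chromosome X at 622550 to 623014, reverse strand) encodes the copper and zinc enzyme of the cytosol and the mitochondrial intermembrane space. It had 3514, 3762 and 3549 FPKM in the knockout, against 3524 and 2874 FPKM in the wild type. Only wild-type replicate 2 stood apart, and the log2 fold change was 0.18 ± 0.11 (SE, limma, adjusted p = 0.391) with a 95% interval of -0.07 to 0.44. Without wild-type replicate 2 it was 0.033, and without wild-type replicate 1 it was 0.33. SOD2 (YHR008C, chromosome VIII at 122889 to 123590, reverse strand), the manganese enzyme of the mitochondrial matrix, had 455, 378 and 446 FPKM in the knockout, against 375 and 404 FPKM in the wild type. Knockout replicate 2 was at the wild-type level and the other knockout libraries above it. SOD2 differed by 0.13 ± 0.11 in log2 (SE; limma, adjusted p = 0.519), with a 95% interval of -0.13 to 0.38, and 0.21 without knockout replicate 2 (adjusted p = 0.124).

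CCP1 (YKR066C, chromosome XI at 566113 to 567198, reverse strand) encodes the peroxidase of the mitochondrial intermembrane space that takes electrons from cytochrome c. It had 177, 147 and 150 FPKM in the knockout, against 156 and 176 FPKM in the wild type. The groups overlapped. The log2 fold change was -0.07 ± 0.11 (SE, limma, adjusted p = 0.735), with a 95% interval of -0.34 to 0.19. Without knockout replicate 2 the log2 fold changes were -0.02 for CCP1, -0.17 for TSA1, 0.14 for HYR1, -0.15 for GPX2 and 0.15 for SOD1, none called (limma, adjusted p = 0.906, 0.258, 0.259, 0.690 and 0.358).

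**Figure D3:**
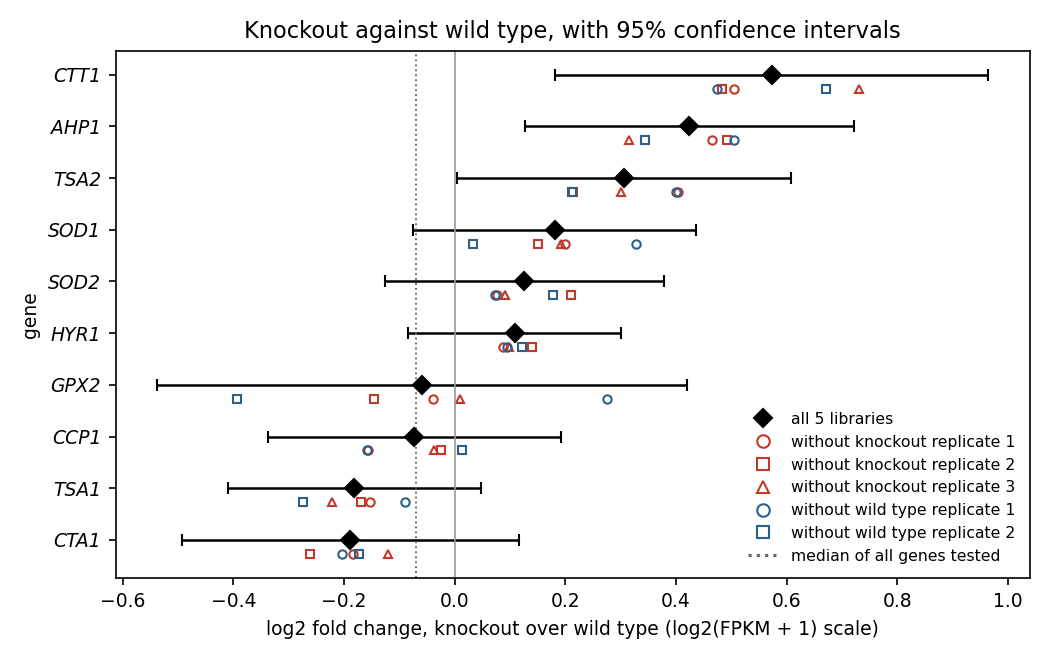
Log2 fold change of each enzyme gene, knockout over wild type, on the log2(FPKM + 1) scale, with 95% confidence intervals from limma on all 5 libraries (black diamonds) and the values with each library left out (open symbols). Intervals of CTT1, AHP1 and TSA2 lie above 0 before adjustment over all genes, and GPX2 has the widest spread of left-out values, from -0.39 to 0.28.

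Other genes of oxidant defence, from lists made from general knowledge with earlier results of these data known, were not called either. For comparison with the counts of each list below, 18.6% of all genes tested had an unadjusted p under 0.05 and 0.263% were called (limma). The remaining peroxidases, GPX1, the mitochondrial peroxiredoxin PRX1 and the nuclear DOT5, had positive log2 fold changes, and 0 of 3 were called, with 1 at an unadjusted p under 0.05. PRX1 had 305, 228 and 285 FPKM in the knockout, against 203 and 220 FPKM in the wild type (0.36 ± 0.13 SE, limma, adjusted p = 0.234). GPX1 had 0.30 ± 0.20 with overlapping groups. Among the 17 genes of the thioredoxin and glutathione system 12 values were positive and 5 negative, with 0 called, 6 at an unadjusted p under 0.05 and a median of 0.16. The glutaredoxins GRX1 and GRX2 had the largest, at 0.38 ± 0.11 and 0.35 ± 0.12 (SE, limma, adjusted p = 0.182 and 0.214). GSH1 had the lowest negative value, -0.35 ± 0.13 (SE, limma, adjusted p = 0.226), with all knockout libraries below the wild type.

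Of 5 genes that repair or activate such enzymes, 0 were called, 2 had an unadjusted p under 0.05 and the median log2 fold change was -0.04. The methionine sulfoxide reductases, which mend oxidised methionine, had opposite signs. Mitochondrial MXR2 had 205, 188 and 203 FPKM in the knockout, against 142 and 136 FPKM in the wild type (0.51 ± 0.09 SE, limma, adjusted p = 0.0799). MXR1 had 85.2, 87.1 and 83.7 FPKM in the knockout, against 101 and 101 FPKM in the wild type (-0.24 ± 0.08, adjusted p = 0.214). The groups did not overlap for either gene. CCS1, the copper chaperone of SOD1, had 0.03 ± 0.09 and SRX1, the sulfiredoxin that restores overoxidised Tsa1, -0.06 ± 0.15.

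Of 10 regulators 0 were called, with 2 at an unadjusted p under 0.05 and a median of -0.09. Those 2 were SKN7 and YBP1, with all knockout libraries below the wild type. Their log2 fold changes were -0.37 ± 0.11 and -0.34 ± 0.13 (SE, limma, adjusted p = 0.19 and 0.23). The largest values, not under that unadjusted p, were those of HAP4, an activator of respiratory genes, and MAC1, an activator of copper uptake genes. HAP4 had 0.43 ± 0.19 and MAC1 -0.42 ± 0.21 (SE, limma, adjusted p = 0.275 and 0.333). YAP1 itself had 57.1, 60.1 and 55.1 FPKM in the knockout, against 62.9 and 59.1 FPKM in the wild type. The 9 other Yap1 targets had a median of -0.05 with 0 called and 3 at an unadjusted p under 0.05. The multidrug transporters PDR5 and SNQ2 had the largest values, -0.54 ± 0.15 and -0.51 ± 0.13 (adjusted p = 0.182 and 0.170), with all knockout libraries below the wild type.

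Among 6 genes of cytochrome c and the proteins that use it, 0 were called, 3 had an unadjusted p under 0.05 and the median was 0.13. The cytochrome c isoforms had opposite signs. CYC7, the isoform of low oxygen and stress, had 460, 375 and 418 FPKM in the knockout, against 304 and 248 FPKM in the wild type (0.60 ± 0.13 SE, limma, adjusted p = 0.132). CYC1, known as the main isoform of respiring cells, was the lower of the pair in every library. It had 54.8, 70.2 and 53.8 FPKM in the knockout, against 80.8 and 83.1 FPKM in the wild type (-0.46 ± 0.13, adjusted p = 0.182). The 6 peroxisomal beta-oxidation genes, whose oxidase makes the peroxide that CTA1 removes, had a median of -0.03 with 0 called and 1 at an unadjusted p under 0.05. ANT1 had -0.29 ± 0.12 and PEX11 -0.16 ± 0.14. Of 7 genes of copper and iron handling that were tested 0 were called, 2 had an unadjusted p under 0.05 and the median was 0.06. The copper chaperone ATX1 had 0.58 ± 0.12 (adjusted p = 0.132) and the metallothionein gene CUP1-2, a near-identical repeat whose reads are uncertain, 0.47 ± 0.19 with overlapping groups.

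**Figure D4:**
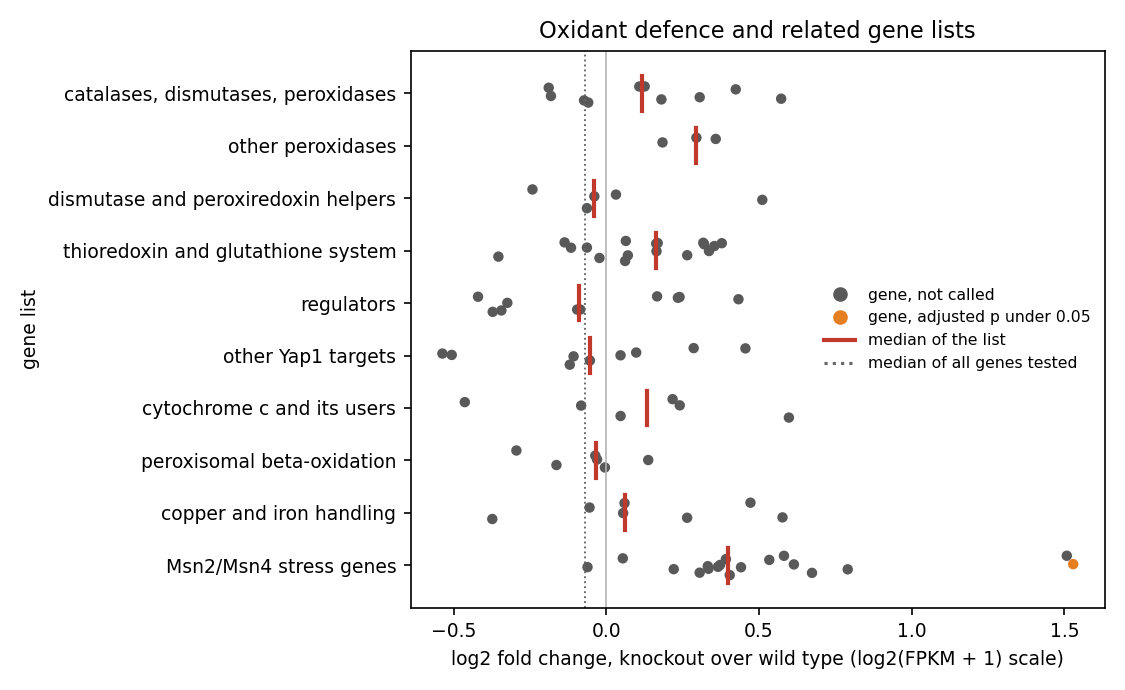
Log2 fold change, knockout over wild type on the log2(FPKM + 1) scale, of each gene tested in the enzyme set and in related lists, with red bars at the list medians and a dotted line at the median of all genes tested, -0.07. The median of the enzyme set is 0.12, that of the Msn2/Msn4 stress genes 0.40, and HSP26 is the one gene called.

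CTT1 was set beside other stress genes of the Msn2/Msn4 group, to which it belongs. Of the 18 others tested 1 was called, the small heat-shock gene HSP26, which rose to 292, 226 and 234 FPKM in the knockout, against 77.5 and 94.6 FPKM in the wild type (1.53 ± 0.14 SE in log2, limma, adjusted p = 0.0164). That call was lost without knockout replicate 3, without wild-type replicate 1 and without wild-type replicate 2, where the log2 fold change was still 1.57, 1.39 and 1.67 (limma, adjusted p = 0.133, 0.0872 and 0.119). Without knockout replicate 2, 15 of the 18 were called higher, where 5.22% of all genes were. Positive values were found for 17 of the 18, with a median of 0.40, and 13 had knockout libraries all above the wild type, against 13.1% of all genes tested. The value of CTT1, 0.57, lay above this median and far under HSP26. The 3 genes whose centred log2 values over the 5 libraries came closest to those of CTT1, among 5046 with a mean of at least 10 FPKM, were GPC1, YER121W and YOR292C, at root mean square distances of 0.11, 0.12 and 0.12 on the log2 scale. Their log2 fold changes were 0.49 ± 0.12, 0.64 ± 0.14 and 0.69 ± 0.18 (SE), none called (limma, adjusted p = 0.170, 0.132 and 0.176). As they were picked by their values in these same libraries, log2 fold changes near that of CTT1 follow from the choice.

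Of 8 markers of late growth stages 1 was called, SPG4. Positive log2 fold changes were found for 7 of the 8, and 4 had knockout libraries all above the wild type, where 13.1% of all genes tested did. Their summed levels were 140 to 190 FPKM in knockout libraries and 110 to 113 FPKM in wild-type libraries, and without SPG4 they were 143, 110 and 142 FPKM in knockout libraries and 99.95 and 105 FPKM in wild-type libraries. SPG4 stood at 46.0, 30.2 and 47.3 FPKM in the knockout, against 10.5 and 7.93 FPKM in the wild type (2.03 ± 0.22 SE in log2, limma, adjusted p = 0.0316). That call held without knockout replicate 2 (adjusted p = 0.000302) and was lost without any other single library, where the log2 fold change was still 1.85 to 2.21 (adjusted p between 0.0569 and 0.300). It was also lost with equal FPKM sums, with the length trend removed and with the replicate block (1.95, 1.87 and 1.92, adjusted p = 0.0524, 0.0689 and 0.0622). ADH2, which is shut off while glucose lasts, had 20.0, 23.6 and 20.4 FPKM in the knockout, against 20.2 and 22.9 FPKM in the wild type. No marker of the list was at 0 in all libraries, and the part of growth stage in the values of CTT1 and the other enzymes was not tested.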

How the data were processed

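Messenger RNA of 3 SUL1 knockout and 2 wild-type yeast libraries was sequenced, and groups and replicate numbers were taken from the titles. The third wild-type replicate of the design text was not analysed here. Deposited values are FPKM, 1 table per strain, per the file headers. FPKM scales each library by its own size, and the headers name no further scaling. HISAT2 2.1.0, Bowtie2, RSEM 1.3.1, DESeq2 1.4.5 and build R64 are named, without roles, per the submitters' processing notes; annotation, strand and read length are not given in the sources used. All columns were used. Of 5886 gene identifiers, 5883 matched R64.

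As the values are FPKM, limma 3.58.1 (R 4.3.3) was used on log2(FPKM + 1), with trended, robust empirical Bayes moderation, genotype alone, and Benjamini-Hochberg adjustment over 5712 genes whose mean reached 1 FPKM (174 left out). Fold changes on this scale understate low genes. Intervals are 95%, unadjusted.

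Depth came from the steps between low FPKM values. Of 69 to 83 values per library, 84.7% to 92.6% lay within 0.15 of a whole number of fragments. The effective length was 136 to 148 bases under the coding length. Arbitrary values give 30% at a depth and length fixed in advance. Here depth and length were chosen to make the share largest, so arbitrary values would also exceed 30%. The depth entered no test. Estimated fragments per enzyme gene ran from 412 to 75940, a counting error of 4.93% to 0.363%. Sequences came from the R64 RefSeq genome, with biopython 1.88 and pandas 2.3.3 in Python 3.11.15; scipy 1.17.1 gave the permutation tests and matplotlib 3.10.9 the figures.

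Genes named are all 10 members, SUL1 and, from each list, up to 3 called genes or the 2 with the largest change; others were chosen after their values were seen. Members and lists were chosen with earlier results of these data known. Alternatives were another pseudocount, no filter, other scalings, a length correction, plain moderation, a replicate block and each library left out.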

Additional observations from a re-analysis of the deposited data

How the results depend on the processing

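Across 13 alternatives no enzyme gene was called except AHP1 without knockout replicate 2 (limma, log2 fold change 0.49, adjusted p = 0.0311). CTT1, CTA1, AHP1, TSA1, TSA2, SOD1, SOD2 and HYR1 kept their sign in all of them. GPX2 turned positive with median ratio scaling (0.0058) and with the replicate block (0.0089), and ran from -0.39 to 0.28 with each library left out. CCP1 ran from -0.16 to 0.014, AHP1 from 0.32 to 0.50 and CTT1 from 0.47 to 0.73 in those fits. The median of the 10 was 0.025 with equal FPKM sums, 0.18 with median ratio scaling and 0.042 with the length trend removed, and 0.078 to 0.18 with each library left out. The median of all genes was -0.16, -0.0067 and -0.00094 under those 3 settings. The cause of these moves was not tested.

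Of all genes, 15 were called as reported, 8 with equal FPKM sums (4 higher, 4 lower), 6 with the length trend removed (5 higher, 1 lower), 0 with the replicate block (limma, 399 at an unadjusted p under 0.05) and, with each library left out, between 0 and 896. That was 896 without knockout replicate 2, 9 without knockout replicate 1 and 1 without knockout replicate 3. Without wild-type replicate 1 or 2 none was called (limma, 747 and 318 at an unadjusted p under 0.05), on the assumption that the remaining wild-type library varies as the knockout does. Calls among the enzyme genes ran from 0 to 1. Among the lists they ran from 0 to 15 for the 18 Msn2/Msn4 genes (2 with median ratio scaling, 0 with the replicate block). For the 17 genes of the thioredoxin and glutathione system they ran from 0 to 5, and for the 7 of copper and iron from 0 to 3. The 10 regulators and the 6 cytochrome c genes had 0 to 2 each, and the other 4 lists 0 to 1 each. Each of these upper counts came from the fit without knockout replicate 2. In that fit 5.22% of all genes were called higher and 10.5% lower. In every other fit the lists besides the Msn2/Msn4 genes had 0 calls. The log2 ratio of GPX2 to HYR1, knockout minus wild type, ran from -0.52 to 0.18.

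Whether the replicate numbers of the titles pair the libraries is not known. Over genes, deviations from the group means correlated at -0.37 for number 1 and -0.43 for number 2. Crossed numbers gave 0.37 and 0.43. With 2 wild-type libraries the wild-type deviations mirror each other, so these values cannot decide whether same-numbered libraries belong together. The replicate block only shows what a shared number does to the fit. Knockout replicate 3 has no partner and so drops out of that comparison. The block ended every call among all genes.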
